A study of Mus musculus with 16 samples.

Results

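CD8+ and CD4+ dendritic cells (DC) of mouse spleen were compared by microRNA (miRNA) levels on 4 one-colour arrays, 2 for each population, out of 16 arrays of 8 sorted populations in the study. All cells came from female C57Bl/6 mice aged 6 weeks, and each array held the RNA of a pool of 8 mice, sorted directly without culture, with 2 biological replicates per the labels. Both populations were sorted as CD11c+ CD3- B220-. The CD8+ DC were CD4- CD8+ and also gated on CD86, a costimulatory molecule that rises on activated DC, and the CD4+ DC were CD4+ CD8- with no CD86 gate in their label. A pool hides the spread between animals. The p-values rest on the spread left between replicate pools after the replicate number was fitted, estimated over all 8 populations. Another spleen population, CD4-CD8- DC (CD11c+ CD3- CD4- CD8-, 2 pools of 8 mice), is used to place the differences. The other 10 arrays held bone marrow cells, called MP, MDP and CDP (pools of 15 mice, lineage-negative CD135+ cells), Gr1+ monocytes and PDC (pools of 5 mice), abbreviations that the labels do not spell out. Replicate 1 of each population lay on one array design and replicate 2 on another, so differences were taken within the replicate number, over the 604 mouse miRNAs on both designs.

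CD8+ DC and CD4+ DC are the main resident DC of the spleen. CD8+ DC are known for taking up dying cells and presenting their antigens to CD8+ T cells, and CD4+ DC for priming CD4+ T cells. A miRNA is a short RNA of about the length of the sequences given below that pairs with messenger RNAs, mostly through its seed (bases 2 to 8), and lowers their output. miRNAs with the same seed tend to share targets. One miRNA, miR-142, is known from mice that lack it to be needed for spleen CD4+ DC.

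Calls rest on an adjusted p under 0.05 (limma, Benjamini-Hochberg over the 175 miRNAs tested). The count of calls depended on how the arrays were scaled against each other, as given below, so the results lead with the 17 miRNAs called in the same direction under 4 ways of scaling, a share of 9.71 percent of the 175. Of these, 6 were higher in CD8+ DC (3.43 percent) and 11 were lower (6.29 percent). Starting from the main scaling, this requirement was a weaker check of the lower ones than of the higher ones, as given below. The higher ones were miR-714, miR-138, miR-139-3p, miR-365, miR-221 and miR-125a-3p. The lower ones were miR-34a, miR-125b-5p, miR-99a, miR-28, miR-340-5p, miR-200b, miR-151-5p, miR-322, miR-340-3p, miR-361 and miR-181b. A mature sequence from RefSeq was matched for 15 of the 17. They are shown with the seed in capitals, 5′ to 3′, because the seed says which of them could share targets, and miR-222 is added because it has the seed of miR-221. The miRNAs higher in CD8+ DC come first.
miR-138: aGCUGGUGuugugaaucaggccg
miR-139-3p: uGGAGACGcggcccuguuggag
miR-365: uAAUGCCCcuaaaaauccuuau
miR-221: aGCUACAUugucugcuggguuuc
miR-222: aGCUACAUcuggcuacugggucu
miR-125a-3p: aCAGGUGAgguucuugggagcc
The miRNAs lower in CD8+ DC follow.
miR-34a: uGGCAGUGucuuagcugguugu
miR-125b-5p: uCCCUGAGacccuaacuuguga
miR-99a: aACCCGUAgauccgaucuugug
miR-28: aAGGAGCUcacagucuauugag
miR-340-5p: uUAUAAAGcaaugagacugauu
miR-340-3p: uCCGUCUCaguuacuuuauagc
miR-200b: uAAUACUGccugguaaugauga
miR-322: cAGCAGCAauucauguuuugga
miR-361: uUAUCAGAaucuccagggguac
miR-181b: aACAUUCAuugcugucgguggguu
In mouse build GRCm38.p6, miR-221 and miR-222 are neighbours on the minus strand of chromosome X, at chrX:19146307-19146329 and chrX:19146901-19146923. A copy of miR-138 lies at chr8:94324312-94324334 and another at chr9:122682898-122682920, both on the plus strand. miR-34a is at chr4:150068473-150068494 on the plus strand. miR-99a (chr16:77598940-77598961) and one copy of miR-125b-5p (chr16:77646279-77646300) lie on the plus strand of chromosome 16. A second, identical copy of miR-125b-5p lies at chr9:41581940-41581961, and the array does not tell the copies apart. The arms of miR-340 come from one hairpin on the plus strand of chromosome 11 (chr11:50069720-50069741 and chr11:50069762-50069783).

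Detection was higher on the CD8+ DC arrays. Of the 604 miRNAs, 150 and 174 were detected on the CD8+ DC arrays of replicates 1 and 2, against 131 and 163 on the CD4+ DC arrays, where a miRNA counts as detected when 1 of its probes had a share of 0.5 or more of its spots well above background. The bright corner control spots had median signals of 212 and 615 on the CD8+ DC arrays and 157 and 388 on the CD4+ DC arrays. On both slides the CD8+ DC array lay at row 1, column 1, where no other population lay, so the position on the slide and the CD8+ DC population cannot be told apart. The part of these signal differences in the results was not tested. No array had a saturated spot (0 spots).

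The main scaling set each array relative to its 75th percentile, taken over the 88 miRNAs that every one of the 16 arrays detected. Under it 54 of the 175 miRNAs were called (30.9 percent), 43 higher (24.6 percent) and 11 lower (6.29 percent) in CD8+ DC. All 11 lower calls and 6 of the 43 higher calls were among the 17. When the 75th percentile was taken over all 604 miRNAs, 56 were called (32 percent), 6 higher (3.43 percent) and 50 lower (28.6 percent). From this start all 6 higher and 11 of the 50 lower calls were among the 17, so the share kept on each side depends on the starting scaling. With quantile normalization 39 were called (22.3 percent), 16 higher (9.14 percent) and 23 lower (13.1 percent). With the median of the 121 miRNAs that all 4 arrays detected as the unit, 57 were called (32.6 percent), 17 higher (9.71 percent) and 40 lower (22.9 percent). The median difference over all tested miRNAs was 0.23 on the log2 scale under the main scaling, -0.22 with the percentile over all miRNAs and 0 under the other 2. Against the main scaling, each of the others thus moved the median down. A lower call of the main scaling was therefore easier to keep than a higher one, and the requirement of all 4 scalings says less about the 11 lower miRNAs. The number of miRNAs on each side changed with the scaling, while the order of the miRNAs within a replicate does not change when an array is divided by a constant. Among these 121 miRNAs, ranked on the signals before any was raised to the floor described below, miR-714 had the highest difference in replicate 1 and the 5th highest in replicate 2, and miR-138 the 5th and the highest. At the other end, miR-34a had the 2nd lowest difference in replicate 1 and the lowest in replicate 2, miR-340-5p the 3rd lowest in both, and miR-28 the 4th and the 2nd lowest. The lowest of replicate 1 was miR-125b-5p, which was 7th lowest in replicate 2.

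**Figure D1:**
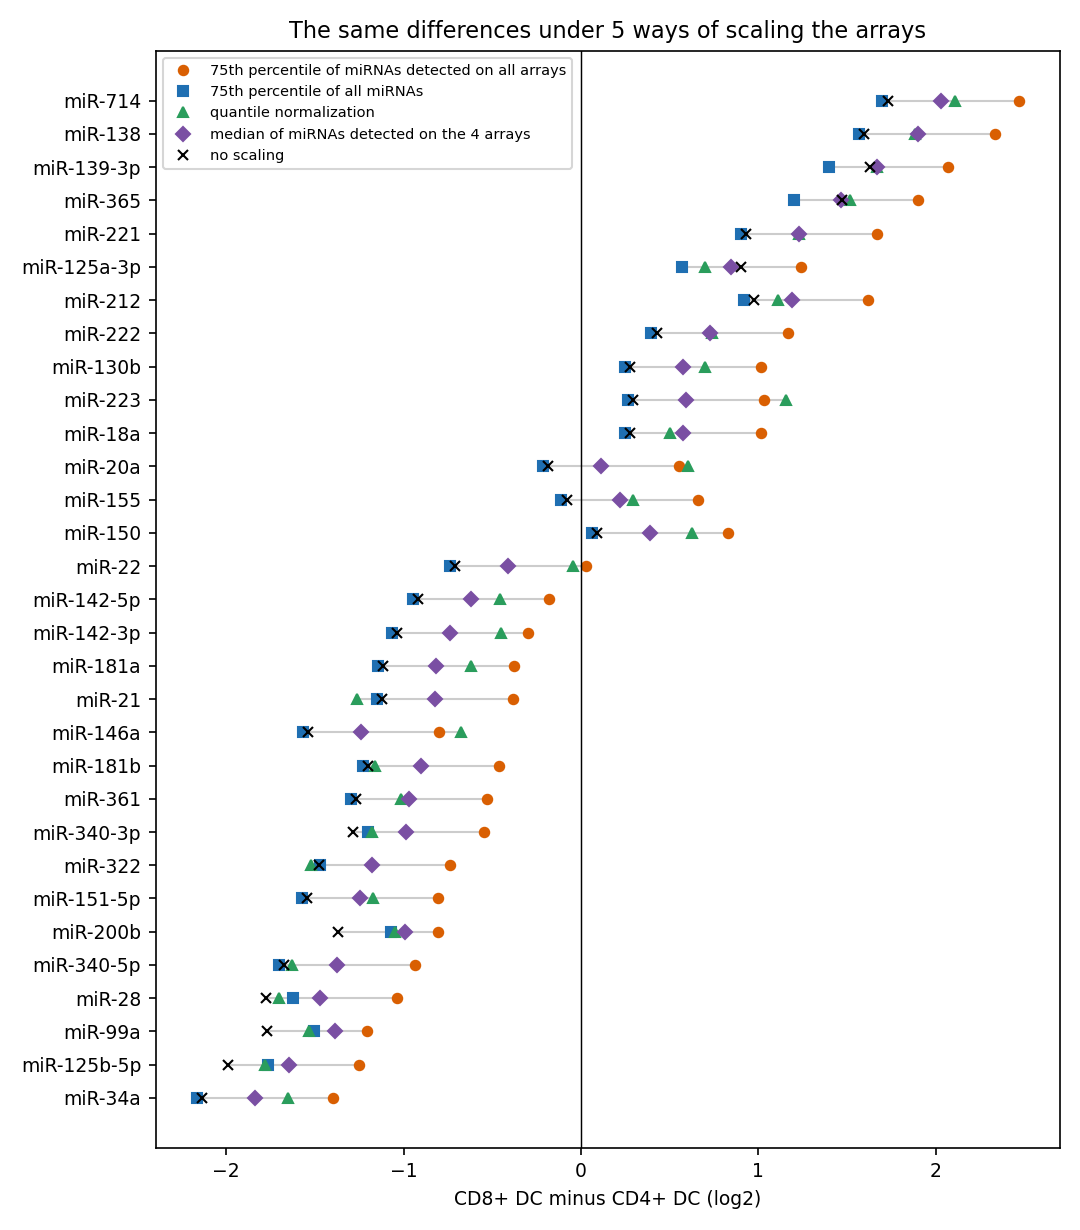
Difference between CD8+ DC and CD4+ DC (log2, x axis) of the 17 miRNAs called under all 4 scalings and of 14 others, each under the 4 scalings and without scaling (symbols). The 6 miRNAs at the top stay above 0 and the 11 at the bottom below 0 under each, while miR-20a, miR-155 and miR-22 lie on both sides of 0.

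The levels below are log2 signals relative to the main scaling value of the array. Differences are given ± SE with n = 2 pools per population, the SE coming from the fit over all 16 arrays. A level at the floor (-5.30 for replicate 1 and -5.78 for replicate 2) means a signal too dim to be told from lower ones. Floor values have no spread of their own, so the SE and p of miRNAs at the floor in several populations can be too small.

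miR-138, a miRNA known from neurons and from repression in T cells, was at -2.02 and -2.40 in CD8+ DC and at -4.61 and -4.48 in CD4+ DC, in replicates 1 and 2. Both CD8+ DC arrays lay above both CD4+ DC arrays, by 2.34 ± 0.15 (adjusted p = 2.75e-05), a 5.05-fold difference in signal. It was not above background in any other population, the CD4-CD8- DC among them. The difference ran from 1.57 to 2.34 over the 4 scalings and was called without each of the 4 arrays in turn. miR-138*, from the other arm of its hairpin and looked up after the values of miR-138 were seen, was not above background in CD4+ DC. Under the main scaling, the only one under which it was called, it was at least 1.38-fold higher in CD8+ DC (adjusted p = 0.00374).

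miR-365 had -3.58 and -3.35 in CD8+ DC, while CD4+ DC were not above background (-5.30 and -5.43). The fitted difference was 1.90 ± 0.19 (adjusted p = 0.000212), and 1.20 with the percentile over all miRNAs. Under the main scaling the signal was at least 3.63-fold higher in CD8+ DC. For such a bound the dim side takes its own signal, or the dimmest well-above-background signal of the array where that is higher. Each bound of this kind in the text was taken under the main scaling and is not a bound under the other scalings. miR-125a-3p, the arm opposite the better known miR-125a-5p, was likewise not above background in CD4+ DC. It had -4.14 and -4.46 in CD8+ DC, at least 2.04-fold higher under the main scaling (1.24 ± 0.11, adjusted p = 0.000187). Its difference was 0.57 with the percentile over all miRNAs. Both miRNAs were detected on both CD8+ DC arrays and on neither CD4+ DC array. No other population showed either of them on both its arrays, so they were tested only through CD8+ DC, where they are high. The same holds for miR-138* and miR-486, and the detection of these miRNAs in CD8+ DC is no separate support. Of the 604 miRNAs, 147 were detected on both CD8+ DC arrays and 129 on both CD4+ DC arrays. Among the 147, 11 were detected on 0 CD4+ DC arrays, and among the 129, 2 were detected on 0 CD8+ DC arrays.

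miR-221, known for lowering the cell cycle inhibitor p27 and the receptor Kit, had -1.36 and -1.76 in CD8+ DC against -3.07 and -3.39 in CD4+ DC. The difference of 1.67 ± 0.16 (adjusted p = 0.000187) was nearly equal in its probes, from 1.62 to 1.78 over 2 probes and both replicates. miR-222, with the same seed, had -3.11 and -2.92 in CD8+ DC against -4.23 and -4.13 in CD4+ DC (1.17 ± 0.14, adjusted p = 0.000616). Its difference was 0.40 with the percentile over all miRNAs, where it was not called, and it was called under the other 3 scalings. So both members of this pair were higher in CD8+ DC on each array, and the call of miR-221 alone stood under all 4 scalings.

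miR-139-3p had -2.94 and -4.01 in CD8+ DC and lay at the floor on both CD4+ DC arrays (2.07 ± 0.32, adjusted p = 0.0029). It still counted as detected there, which takes only 1 probe. On the CD4+ DC arrays 1 of its 2 probes had signals of 28.6 and 20.9, with differences of 1.44 and 1.31. The other probe had only 0.313 and 0.4 there. Of the 15 with a sequence, miR-139-3p had the highest share of G and C, 68.2 percent. miR-714, for which no sequence was matched, had -1.71 and -2.68 in CD8+ DC against -5.00 and -4.34 in CD4+ DC (2.47 ± 0.42, adjusted p = 0.00431). The replicates of miR-714 differed more than those of the other 5: the difference was 3.28 in replicate 1 and 1.65 in replicate 2. Leaving out single arrays took the call from none of these 6 miRNAs (0 of 6 for each of the 4 arrays). Without the replicate block miR-139-3p was not called (adjusted p = 0.0851). With normexp background correction, which added an offset of 50 to each signal, only miR-221 of the 6 was called (1.19, adjusted p = 0.0234). The others had differences of 0.38 to 1.23.

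**Figure D2:**
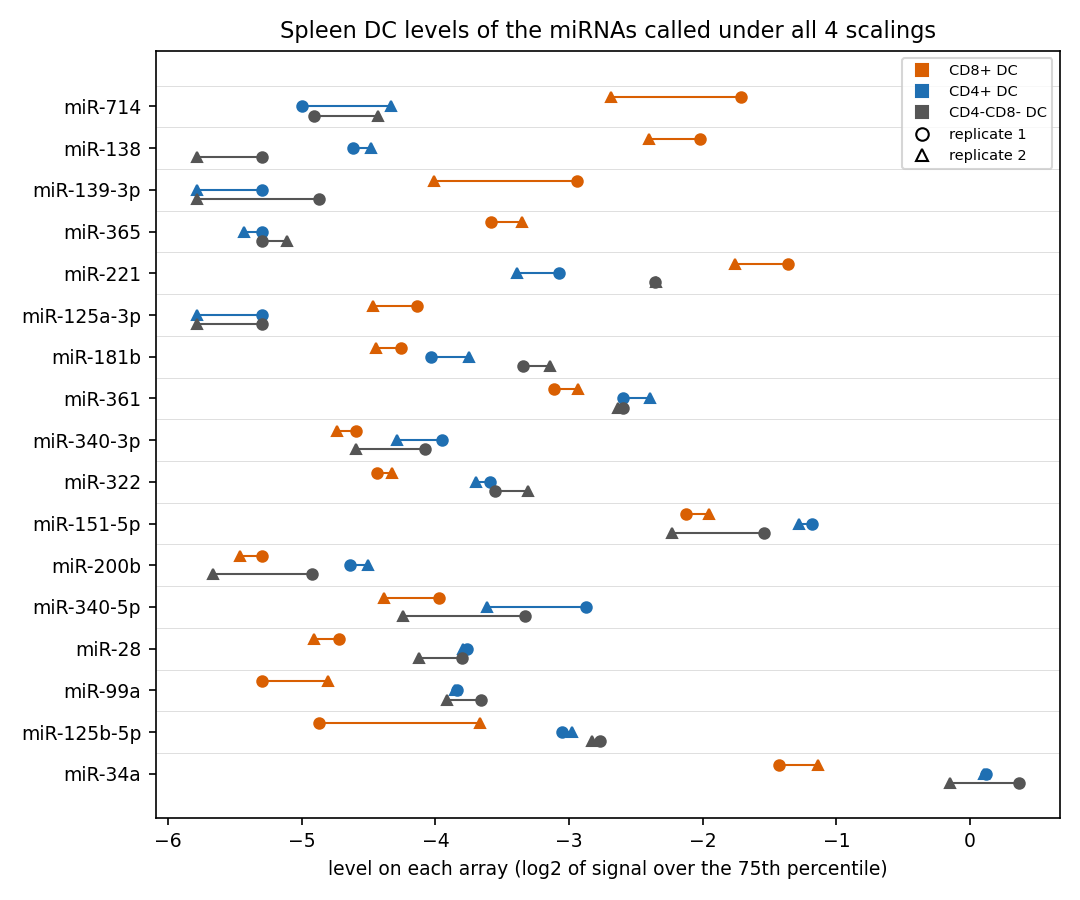
Level of the 17 miRNAs on each array of the 3 spleen DC populations (x axis, log2 of signal over the 75th percentile of the array), circles for replicate 1 and triangles for replicate 2. For the upper 6 miRNAs both CD8+ DC arrays lie above both CD4+ DC arrays, and for the lower 11 both lie below. The 17 were chosen on these values, so the separation is no further support. Arrays of miRNAs not called, such as miR-146a, could also lie apart.

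The 11 miRNAs lower in CD8+ DC differed by 0.46 to 1.40 on the log2 scale. miR-34a, known as a target of p53 that lowers cell cycle and survival genes, had the largest difference of the 11. Its levels were -1.43 and -1.14 in CD8+ DC against 0.12 and 0.10 in CD4+ DC (-1.40 ± 0.28, adjusted p = 0.0066), a 2.63-fold difference. The difference ran from -2.17 to -1.40 over the 4 scalings, and the range of its probes over both replicates was -1.62 to -1.24. It was not called without replicate 1 of CD8+ DC (-1.13, adjusted p = 0.0671), nor with normexp background correction (-1.13, adjusted p = 0.361).

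miR-125b-5p and miR-99a, which are known as miRNAs of blood stem and progenitor cells, were both lower. miR-125b-5p had -4.87 and -3.67 in CD8+ DC against -3.06 and -2.98 in CD4+ DC (-1.25 ± 0.28, adjusted p = 0.0103). The difference was larger in replicate 1 (-1.81) than in replicate 2 (-0.68), and the call was lost without replicate 1 of CD8+ DC (-0.78, adjusted p = 0.0695) and without replicate 1 of CD4+ DC (-1.07, adjusted p = 0.0751). miR-99a was at the floor in replicate 1 of CD8+ DC and had -4.80 in replicate 2, against -3.84 and -3.85 in CD4+ DC (-1.20 ± 0.21, adjusted p = 0.00439), and stayed called without each array. miR-125a-5p, miR-99b and miR-100 of the same families were not among the miRNAs tested.

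Both arms of miR-340 were lower. The 5p arm had -3.97 and -4.38 in CD8+ DC against -2.87 and -3.61 in CD4+ DC (-0.94 ± 0.19, adjusted p = 0.0066), and was not called without replicate 1 of CD4+ DC (-0.78, adjusted p = 0.058). The 3p arm had -4.59 and -4.73 against -3.95 and -4.29 (-0.55 ± 0.13, adjusted p = 0.0106), and was not called without replicate 1 of CD8+ DC (-0.47, adjusted p = 0.0757) or of CD4+ DC (-0.50, adjusted p = 0.0751). For both arms the CD4+ DC arrays lay above the CD8+ DC arrays without overlap.

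miR-28 had -4.72 and -4.91 in CD8+ DC against -3.76 and -3.80 in CD4+ DC (-1.04 ± 0.18, adjusted p = 0.00473). miR-322, the mouse form of human miR-424 and a member of the miR-15 and miR-16 seed family, had -4.44 and -4.32 against -3.59 and -3.70 (-0.74 ± 0.14, adjusted p = 0.00507). Both stayed called without each of the 4 arrays, and the replicates of each population lay close together.

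Of the remaining 4 lower miRNAs, each lost its call without at least 1 array. miR-200b, best known from epithelial cells, had a CD8+ DC level at the floor in replicate 1 and of -5.46 in replicate 2, against -4.64 and -4.50 in CD4+ DC (-0.81 ± 0.18, adjusted p = 0.0103). It was not called without replicate 1 of CD8+ DC (-0.67, adjusted p = 0.0836) or replicate 2 of CD4+ DC (-0.50, adjusted p = 0.0577). miR-200b was detected on both CD4+ DC arrays and on replicate 2 of CD8+ DC. Its family member miR-200c was detected on both CD4+ DC arrays and on neither CD8+ DC array, and was not called (-0.42 ± 0.21, adjusted p = 0.161). The part of epithelial RNA in these differences was not tested. miR-151-5p had -2.12 and -1.95 in CD8+ DC against -1.18 and -1.28 in CD4+ DC (-0.81 ± 0.23, adjusted p = 0.0276). It kept its call only when replicate 2 of CD8+ DC was the array left out. Without replicate 1 of CD8+ DC it was -0.55 (adjusted p = 0.177), without replicate 1 of CD4+ DC -0.92 (adjusted p = 0.0742) and without replicate 2 of CD4+ DC -0.70 (adjusted p = 0.139). miR-361 had -3.12 and -2.94 against -2.60 and -2.40 (-0.53 ± 0.14, adjusted p = 0.0193) and lost its call whichever array was left out, with differences of -0.55 to -0.51 and adjusted p from 0.0692 to 0.0866. miR-181b, known from lymphoid development, had -4.26 and -4.45 against -4.03 and -3.75 (-0.46 ± 0.15, adjusted p = 0.0426). Its difference was -0.28 without replicate 2 of CD8+ DC (adjusted p = 0.254), -0.55 without replicate 1 of CD4+ DC (adjusted p = 0.0806) and -0.37 without replicate 2 of CD4+ DC (adjusted p = 0.227).

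In all, 9 of the 17 miRNAs kept their call without each of the 4 arrays, and they were the 6 higher ones with miR-28, miR-322 and miR-99a. The 39 probes of the 17 made 75 differences with a signal above 0 on both sides, and 75 of 75 had the direction of their miRNA. The value of a miRNA is the mean of its probes and the 17 were chosen by it, so this is no separate support. The size varied between probes where a signal lay near 0: from 1.31 to 8.62 for miR-139-3p, from -3.69 to -0.45 for miR-125b-5p and from -3.15 to -0.81 for miR-99a. Without the replicate block, 10 of the 17 were called, and in a fit on the 6 spleen arrays alone 6 were. With no filter on detection 10 were called, without miR-34a, miR-125b-5p, miR-151-5p, miR-181b, miR-200b, miR-340-3p and miR-361. With a floor 1 log2 unit higher 14 were called, without miR-99a, miR-200b and miR-181b. In a fit on the 4 arrays alone, 0 of the 17 and 0 of all tested miRNAs were called, with 58 at an unadjusted p under 0.05. With normexp background correction, 1 of 17 was called, and the difference turned to between 0.01 and 0.22 for 6 miRNAs (miR-181b, miR-340-3p, miR-322, miR-200b, miR-28 and miR-99a). That setting added an offset of 50 to each signal before scaling. The offset is larger than the signals of miR-28 in CD8+ DC (14.8 and 15.5). A brighter miRNA lost its call too: miR-34a, with signals of 145 and 211 in CD8+ DC, had -1.13 (adjusted p = 0.361). The cause of these changes was not tested.

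**Figure D3:**
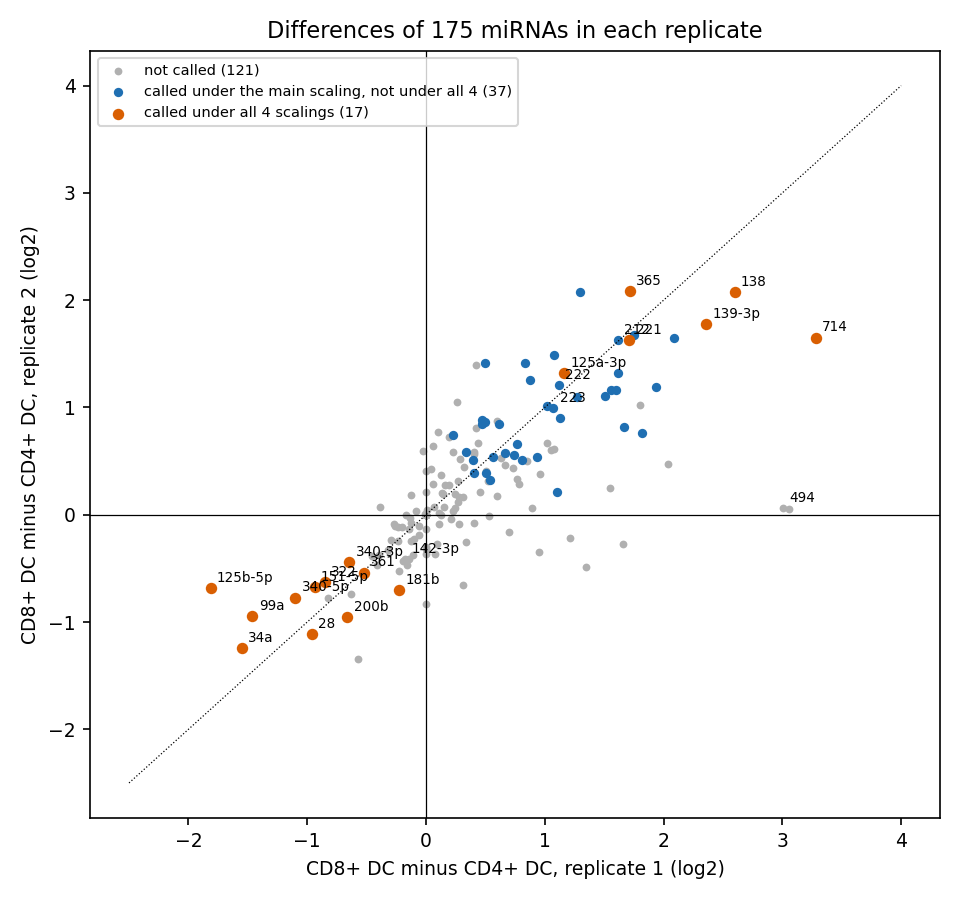
Difference between CD8+ DC and CD4+ DC of the 175 tested miRNAs in replicate 1 (x axis, log2) and replicate 2 (y axis, log2) under the main scaling, with the 17 called under all 4 scalings in orange, the 37 others called in blue and the 121 not called in grey. The dotted line marks equal differences. The 17 lie in the upper right or the lower left, with one sign in both replicates.

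The sign of the difference was the same in both replicates for most tested miRNAs: 94 were above 0 in both and 37 below 0 in both. miR-494 differed in replicate 1 only, with 1.76 in CD8+ DC against -1.25 in CD4+ DC in replicate 1 and 0.21 against 0.14 in replicate 2, and it was not called (1.54 ± 0.93, adjusted p = 0.241).

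The 37 higher calls outside the 17 depended on the scaling. Under 3 of the 4 scalings, 5 were called: miR-202-3p (1.87 ± 0.35, adjusted p = 0.00507), miR-212 (1.62 ± 0.31, adjusted p = 0.00507), miR-1224 (1.28 ± 0.14, adjusted p = 0.000442), miR-222 and miR-130b (1.02 ± 0.14, adjusted p = 0.00185). miR-212, a CREB target that is processed with miR-132, lay at -3.69 and -3.52 in CD8+ DC against -5.30 and -5.15 in CD4+ DC. miR-130b had -1.43 and -1.51 against -2.56 and -2.41. These 5 were higher in CD8+ DC under each scaling, and each kept its call without each of the 4 arrays. miR-1224 and miR-202-3p were the only miRNAs beside miR-221 called with normexp background correction (1.17, adjusted p = 0.0193, and 1.42, adjusted p = 0.0234). However, miR-1224, with a GC share of 66.7 percent, was not called after a fit on GC share was removed (0.50, adjusted p = 0.143). miR-202-3p was not called without the replicate block (1.87, adjusted p = 0.132). The calls of miR-212, miR-222 and miR-130b stood in both of these settings. Another 11 were called under 2 scalings and 21 under the main scaling only. Among the 11 were miR-878-3p, which was not above background in CD4+ DC and at least 2.39-fold higher in CD8+ DC (adjusted p = 0.00556), and miR-148a (0.74 ± 0.14, adjusted p = 0.00507), whose sign turned with the percentile over all miRNAs (-0.03).

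miR-223, the granulocyte and monocyte miRNA, was among those called under 2 scalings. It had 3.35 and 3.23 in CD8+ DC against 2.27 and 2.24 in CD4+ DC (1.03 ± 0.20, adjusted p = 0.00507), with replicates that lay close together. The difference was 0.26 with the percentile over all miRNAs, 0.59 with the median of 121 miRNAs and 1.15 under quantile normalization. It stayed above 0 under each, and its call was kept without each array.

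The lists of families and cell types were chosen with earlier results of these data known, and no list was tested as a set. Their counts are read beside the 24.6 percent of all tested miRNAs called higher and the 6.29 percent called lower, and beside the median of 0.23 over all tested. Of the myeloid list 1 of 7 was called, miR-223. Its median was -0.24, below 0 under all 4 scalings. miR-142-3p had 2.39 and 1.20 in CD8+ DC against 2.57 and 1.61 in CD4+ DC (-0.30 ± 0.19, adjusted p = 0.249), and miR-142-5p had -0.77 and -1.54 against -0.50 and -1.45 (-0.18 ± 0.17, adjusted p = 0.475). Both arms lay lower in CD8+ DC within each replicate, by amounts that the test did not call. The 95% interval of the miR-142-3p difference ran from -0.72 to 0.13. With the percentile over all miRNAs it was -1.07 and with the median of 121 miRNAs -0.74, and it was called under these 2 scalings. miR-142-5p was called lower under the same 2, with -0.95 (adjusted p = 0.0223) and -0.62 (adjusted p = 0.00985). So both arms were called lower in CD8+ DC under 2 of the 4 scalings, and neither under the main scaling or quantile normalization. miR-21 (-0.38 ± 0.38, adjusted p = 0.487) and miR-22 (0.03 ± 0.22, adjusted p = 1) were not called under any scaling, and the sign of miR-22 turned to below 0 under the other 3.

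Of the activation list, miRNAs known to change when myeloid cells are stimulated, in either direction, 3 of 7 tested were called: miR-212 higher, miR-34a and miR-125b-5p lower. miR-125b-5p is known to fall on Toll-like receptor stimulation, so the list has no single direction. miR-146b was called lower under the other 3 scalings. miR-146a, which damps Toll-like receptor signalling, had 0.32 and 0.38 in CD8+ DC against 1.15 and 1.15 in CD4+ DC. The groups did not overlap and the replicates nearly coincided, yet the fit over 8 populations gave -0.80 ± 0.31 (adjusted p = 0.0793), not called. It was called lower under 2 of the 4 scalings, with -1.57 over all miRNAs and -1.24 with the median of 121 miRNAs. miR-155, which activated DC raise, had -2.16 and -0.86 in CD8+ DC against -2.42 and -1.91 in CD4+ DC (0.66 ± 0.36, adjusted p = 0.205). The groups overlapped, with replicate 1 of CD8+ DC below replicate 2 of CD4+ DC. miR-155 was called only without replicate 1 of CD8+ DC (1.25, adjusted p = 0.0418), and its sign turned with the percentile over all miRNAs (-0.11).

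Of the miR-17 clusters, which drive proliferation of blood progenitors, 4 of 10 were higher and 0 lower. They were miR-18a (1.02 ± 0.19, adjusted p = 0.00507), miR-17 (0.73 ± 0.17, adjusted p = 0.0106), miR-20a (0.55 ± 0.12, adjusted p = 0.0103) and miR-20b (0.45 ± 0.13, adjusted p = 0.0334). Their median was 0.47 under the main scaling, 0.23 under quantile normalization, 0.03 with the median of 121 miRNAs and -0.29 with the percentile over all miRNAs, where miR-20a and miR-20b turned too (-0.22 and -0.32). miR-106b and miR-25 of these clusters were called lower under 2 of the other scalings. Without single arrays, miR-18a stayed called. miR-17 was called only without replicate 1 of CD4+ DC (0.89, adjusted p = 0.0284). miR-20a was not called without that array (0.54, adjusted p = 0.0565), and miR-20b without any array (0.40 to 0.49, adjusted p from 0.085 to 0.142).

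Of the let-7 family, 1 of 9 was called, miR-98 (0.46 ± 0.13, adjusted p = 0.0275), and it lost the call without each array (0.36 to 0.56, adjusted p from 0.0525 to 0.157). The family's median of 0.22 turned to -0.55 with the percentile over all miRNAs and to -0.22 with the median of 121 miRNAs. let-7b, let-7c and let-7g were called lower under 2 of the other scalings and let-7i under 1. let-7e stood apart from its family: it was not above background in CD8+ DC, at the floor on both arrays, and had -4.73 and -4.44 in CD4+ DC, at least 1.39-fold higher there, but was not called (-0.96 ± 0.34, adjusted p = 0.0581). Of the miR-15 and miR-16 family 1 of 5 was higher, miR-15b (0.40 ± 0.11, adjusted p = 0.0275), and 1 lower, miR-322, while miR-195 was called lower under the other 3 scalings and miR-15a and miR-16 under 2 of them. Under the main scaling it was the single group of 18 shared-seed groups, covering 55 tested miRNAs, with calls in both directions. The call of miR-15b was lost without each array (0.39 to 0.41, adjusted p from 0.0815 to 0.105), and its sign turned with the percentile over all miRNAs (-0.37) and the median of 121 miRNAs (-0.04). The miR-29, miR-30 and miR-23, miR-27 and miR-24 families had 0 of 3, 0 of 5 and 0 of 5 called under the main scaling, with medians of -0.31, -0.02 and -0.16. These medians were lower under the other 3 scalings, at -0.43 to -1.08, -0.42 to -0.79 and -0.32 to -0.93. Members of these families were then called lower: miR-29a, miR-29c, miR-30a, miR-30c and miR-30e under each of the 3, miR-29b, miR-30b, miR-23a and miR-24 under 2, and miR-30d, miR-27a and miR-27b under 1.

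The calls under the main scaling were not spread evenly over sequence composition. A mature sequence was matched for 152 of the 175 tested miRNAs (86.9 percent). Of the 25 with a GC share of 60 percent or more, 10 were higher (40 percent) and 0 lower, with a median difference of 0.67. Of the 42 with 50 to under 60 percent, 14 were higher and 3 lower (median 0.43), of the 57 with 40 to under 50 percent 10 and 5 (median 0.03), and of the 28 under 40 percent 4 and 2 (median 0.19). The GC-rich class had its median above that of all tested under each of the 4 scalings, at 0.01 against -0.22 with the percentile over all miRNAs, 0.18 against 0 under quantile normalization and 0.24 against 0 with the median of 121 miRNAs. In replicate 1 its median was 0.85 and in replicate 2 it was 0.44. Of the 15 among the 17 with a matched sequence, miR-139-3p was the one in this class; the GC shares of miR-714 and miR-151-5p were not analysed here. After a fit on GC share was removed from each array, all 15 of the 17 with a sequence were still called in the same direction, and the calls over all 152 miRNAs were 21 higher and 21 lower.

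**Figure D4:**
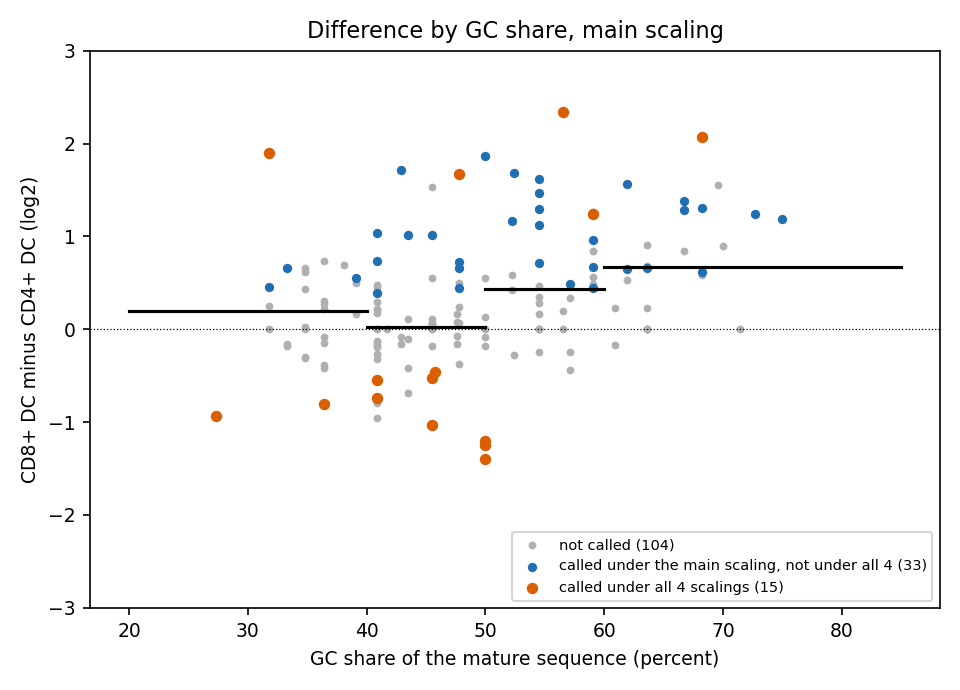
Difference between CD8+ DC and CD4+ DC (y axis, log2, main scaling) against the GC share of the mature sequence (x axis, percent) for the 152 tested miRNAs with a sequence, coloured by call. The black lines are medians of the 4 GC classes, 0.19, 0.03, 0.43 and 0.67 from left to right.

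The CD4-CD8- DC place the differences. Each of these comparisons shares arrays with the main one, so the values are given side by side. Under the main scaling 51 miRNAs were called between CD8+ and CD4-CD8- DC (29.1 percent), 36 higher (20.6 percent) and 15 lower (8.57 percent) in CD8+ DC, and 8 between CD4+ and CD4-CD8- DC (4.57 percent), 1 higher (0.571 percent) and 7 lower (4 percent) in CD4+ DC. The balance of the first comparison turned with the scaling, to 7 higher and 41 lower with the percentile over all miRNAs, 15 and 25 under quantile normalization and 14 and 31 with the median of 121 miRNAs. The second count was 0, 1 and 12 under these 3 scalings. For miR-34a the CD4-CD8- DC had 0.36 and -0.15, a mean of 0.11 that equals that of CD4+ DC to 2 decimals (difference 0.00 ± 0.28, adjusted p = 1), and CD8+ DC lay below CD4-CD8- DC by 1.39 on the log2 scale (-1.39 ± 0.28, adjusted p = 0.00691). The levels of miR-125b-5p, miR-99a, miR-28 and miR-322 in CD4-CD8- DC were also nearer to CD4+ than to CD8+ DC, and CD8+ DC were called lower than CD4-CD8- DC under all 4 scalings for these and for miR-34a and miR-181b. For miR-714, CD4-CD8- DC had -4.90 and -4.43, next to CD4+ DC, and for miR-365 -5.30 and -5.11.

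miR-151-5p and miR-200b had another order. CD8+ and CD4-CD8- DC did not differ beyond their spread for miR-151-5p (-0.15 ± 0.23, adjusted p = 0.67) or miR-200b (-0.09 ± 0.18, adjusted p = 0.759), and CD4+ DC had the highest level of each. CD4+ DC were above CD4-CD8- DC by 0.66 ± 0.23 for miR-151-5p (adjusted p = 0.133) and 0.72 ± 0.18 for miR-200b (adjusted p = 0.0561), not called. miR-138 and miR-221 separated all 3 populations. For miR-138 CD4+ DC were above CD4-CD8- DC, which were at the floor, by 0.99 ± 0.15 (adjusted p = 0.0229), called under 3 scalings. For miR-221 the CD4-CD8- DC lay between, at -2.36 and -2.35, below CD8+ DC by 0.79 ± 0.16 (adjusted p = 0.0063, called under 3 scalings) and above CD4+ DC by 0.88 ± 0.16 (adjusted p = 0.0315, called under 2). miR-181b fell in the order CD4-CD8-, CD4+ and CD8+ DC, with means of -3.25, -3.89 and -4.35, and its step from CD4-CD8- to CD4+ DC was called under 2 scalings (-0.64 ± 0.15, adjusted p = 0.0457).

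The means in the 8 populations show where else each miRNA was present. miR-714, miR-138, miR-139-3p, miR-365 and miR-125a-3p had their highest mean in CD8+ DC. miR-138 was -2.21 ± 0.27 (SD, n = 2) there and miR-365 -3.47 ± 0.16, while miR-365 was not above background in MDP, CDP or Gr1+ monocytes and was detected on 1 array each of MP, PDC and CD4-CD8- DC. miR-221 was highest in MP, MDP and CDP, between -0.43 and -0.40, which do not differ beyond their spread, then in CD8+ DC (-1.56 ± 0.28), Gr1+ monocytes (-1.71 ± 0.23) and PDC (-1.72 ± 0.18), and lowest in CD4+ DC (-3.23 ± 0.22). miR-34a was 0.11 ± 0.01 in CD4+ DC and 0.11 ± 0.36 in CD4-CD8- DC, -1.28 ± 0.21 in CD8+ DC, and -3.31 or lower in the bone marrow populations, so CD8+ DC lay below the other spleen DC and above all bone marrow cells. miR-151-5p, miR-28 and miR-200b were not above background in MP, MDP, CDP or Gr1+ monocytes. miR-125b-5p and miR-99a had their highest means in MP (-1.28 ± 0.52 and -2.27 ± 0.55) and lower ones in MDP and CDP. Their CD8+ DC means (-4.27 ± 0.85 and -5.05 ± 0.35) lay next to those of PDC (-4.23 ± 0.28 and -5.19 ± 0.15).

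**Figure D5:**
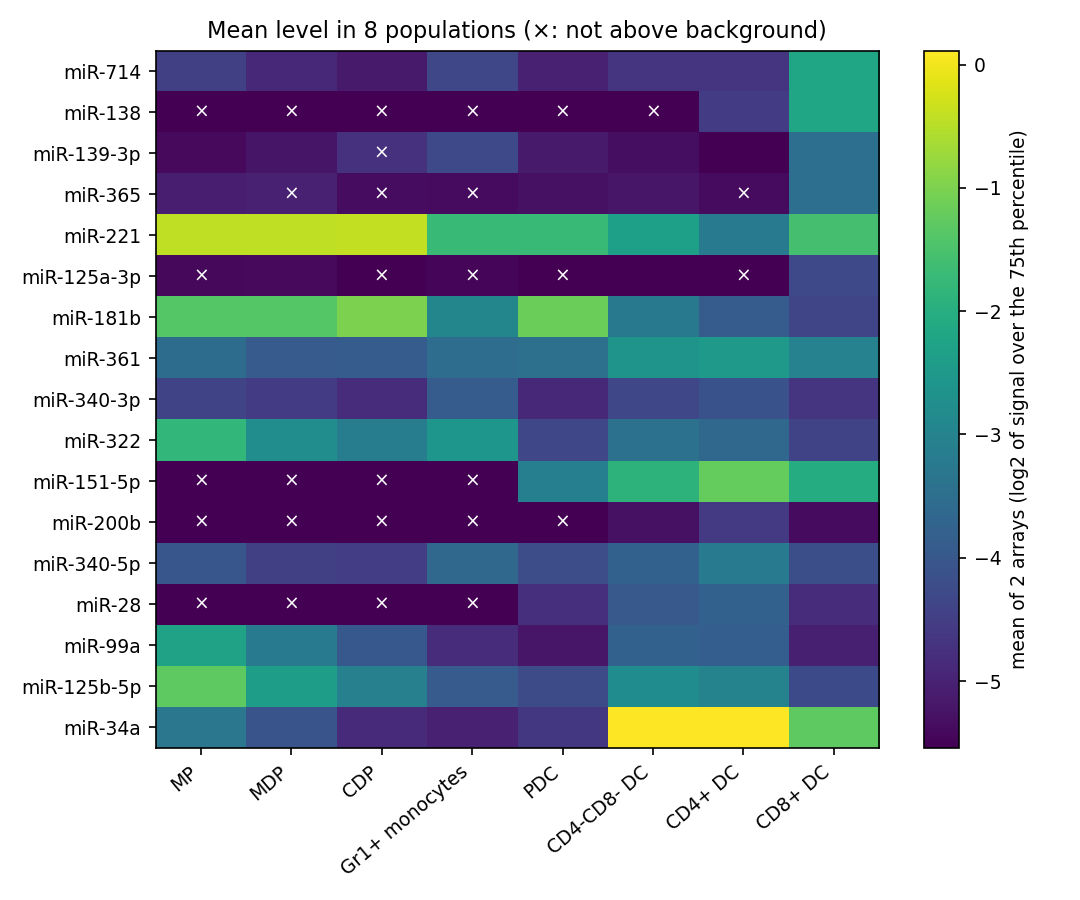
Mean level (colour, log2 of signal over the 75th percentile, mean of 2 arrays) of the 17 miRNAs in the 8 populations, ordered from the largest rise in CD8+ DC over CD4+ DC to the largest fall, with a cross where a miRNA was detected on 0 of the 2 arrays. miR-138 has a cross in each population but CD4+ and CD8+ DC, and miR-34a is brightest in CD4+ and CD4-CD8- DC.

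The array cannot check the surface proteins used in the sort, and levels per cell and shares of cells that express a miRNA cannot be told apart in sorted pools. miRNAs of other cell types were looked at instead. Of the 12 stromal, muscle and epithelial miRNAs, 1 was detected on any CD8+ DC array and 2 on any CD4+ DC array, miR-200b and miR-200c, and the defining miR-143, miR-145, miR-1, miR-133a and miR-133b were detected on none of the 4 arrays. miR-126-3p and miR-126-5p, of platelets and endothelium, and the erythroid miR-144 were not above background on any of them. The erythroid miR-451 was present in both populations, at 0.31 and -0.96 in CD8+ DC against -0.29 and -1.83 in CD4+ DC (0.74 ± 1.08, adjusted p = 0.639). miR-486 was detected on both CD8+ DC arrays and on no CD4+ DC array, at least 1.39-fold higher in CD8+ DC (adjusted p = 0.00765 under the main scaling, the one under which it was called). The lymphocyte miRNAs were detected in both, 7 of 7 in each. miR-150 had -1.44 and -0.83 in CD8+ DC against -2.49 and -1.43 in CD4+ DC (0.83 ± 0.56, adjusted p = 0.283), and of the list miR-181b was called. miR-181a was not called (-0.38 ± 0.13, adjusted p = 0.0513) under the main scaling and was called lower under the other 3, and miR-181c under 2 of them. miR-223, the miRNA of neutrophils and monocytes, was called higher in CD8+ DC under 2 scalings (1.03 ± 0.20, adjusted p = 0.00507 under the main one). Its highest mean was in Gr1+ monocytes (4.42 ± 0.17, SD, n = 2). The part of red cell, lymphocyte, neutrophil or monocyte RNA in the differences was not tested.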

How the data were processed

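The 4 arrays compared are part of 16 one-colour Agilent miRNA arrays (Cy3) of 8 populations. Intensity values are the processed signals of the scanner files as deposited by the authors, background-subtracted by Agilent's Feature Extraction (per the file headers version 10.7.3.1, and 9.1 per the submitters' processing notes), linear and not scaled between arrays. The deposited series tables hold the same intensities rounded.

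Control and outlier spots were left out, spots were averaged per probe and probes per miRNA, arrays were scaled, values below a floor (the median over a design's arrays of the 5th percentile of detected values) were raised to it, and log2 was taken. Tests covered the 175 miRNAs that some population showed on both its arrays. A miRNA could thus enter through CD8+ DC alone, as miR-365, miR-125a-3p, miR-138* and miR-486 did. They used limma 3.58.1 (R 4.3.3) over all 16 arrays, with population means, the replicate number as a block (8.522 degrees of freedom) and Benjamini-Hochberg adjustment. The number pairs the samples because it marks the array design: deviations of same-numbered arrays correlated in all 28 pairs of populations (0.297 to 0.917, and 0.516 for CD8+ and CD4+ DC). The deviations were taken after the floor, which differs between the replicate numbers (-5.30 and -5.78), so miRNAs at the floor can add to this correlation. The fit was tested on simulated data, to which neither the floor nor the scaling was applied anew, so those steps were not checked by it. Named were the 15 largest called rises and falls, all miRNAs called under the 4 scalings, up to 4 members per list and a fixed set of well-known miRNAs, of which the text describes a part. miR-1224, miR-138* and the untested members of lists were added after their values were seen. The members and lists were chosen with earlier results of these data known, and the requirement of all 4 scalings after seeing the data. miRNAs were matched to RefSeq sequences (GRCm38.p6) by their probes, 500 of 604. The number of arrays limits the precision.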

Additional observations from a re-analysis of the deposited data

Results flagged for a closer look

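Array design 2 holds 92 mouse miRNAs that design 1 lacks, which no comparison used because each population has 1 such array. On the replicate 2 arrays, 35 of them were detected in CD8+ DC and 30 in CD4+ DC, with 29 detected in both. Of the 604 miRNAs on both designs, the same arrays detected 174 and 163, so a higher count in CD8+ DC is not particular to the 92. With 1 array per population there is no replicate check.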

How the results depend on the processing

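The count of 54 calls between CD8+ and CD4+ DC (43 higher, 11 lower) was 27 without scaling (7 and 20), 3 with normexp (3 and 0), 28 of 88 among miRNAs detected on all 16 arrays (22 and 6), 28 of 604 with no filter (24 and 4), 22 over the 6 spleen arrays alone (20 and 2), and 42 of 152 with the replicate block and a GC correction (21 and 21). With no replicate block it was 25 (20 and 5). Fitted on the 4 arrays alone, limma called 0, with 58 at an unadjusted p under 0.05. Without single arrays it was 33 to 38 (27 to 31 higher, 6 to 9 lower), and 33 without replicate 1 of either population. Higher and lower calls were 6 and 50 with the percentile over all miRNAs, 16 and 23 with quantile normalization, and 17 and 40 with the median of 121 miRNAs. The median difference of 0.23 was -0.22, 0 and 0 under these 3, -0.20 without scaling, 0.28 for miRNAs detected on all 4 arrays, 0 with no filter, 0.0597 with a higher floor, -0.0469 with the GC correction, 0.13 for GC shares under 60 percent and 0.14 to 0.26 without single arrays.

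The 51 calls of CD8+ against CD4-CD8- DC were 19 without scaling, 1 with normexp, 28 on all-array miRNAs, 25 with no filter, 23 with no replicate block, 16 over the spleen arrays and 29 without replicate 1 of CD8+ DC. The 8 of CD4+ against CD4-CD8- DC were 0 with the percentile over all miRNAs, with normexp, with no filter, with a higher floor, with no replicate block and over the spleen arrays, 1 with quantile normalization, 3 without scaling, 4 with the GC correction, and 2 and 1 without replicates 1 and 2 of CD4+ DC.

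Among the named miRNAs with a call under the main scaling or under the alternative, signs turned with the percentile over all miRNAs for miR-148a (-0.0293), miR-15b (-0.37), miR-20a (-0.22), miR-20b (-0.32), miR-27b (-0.60), miR-30d (-0.67) and miR-98 (-0.31), without scaling for miR-15b (-0.34), miR-20a (-0.19), miR-20b (-0.29) and miR-98 (-0.28), with the median of 121 miRNAs for miR-15b (-0.0438), and with normexp for miR-181b (0.20), miR-200b (0.17), miR-28 (0.0609), miR-322 (0.10), miR-340-3p (0.22) and miR-99a (0.0079). miR-486 was at 0 with a higher floor. The normexp setting added an offset of 50 to each signal, which weighs most on dim miRNAs. The cause of the turns was not tested.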
